A study of Mus musculus with 2 samples.

Results

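Stretches of the mouse genome where Sox6 was called at 5 or more sites in close succession, with no Sox9 peak called nearby, are described here. A run was a series of Sox6 peaks on chromosomes 1 to 19 in which neighbouring peak centres were no farther apart than a limit of about 13 kb. A run was counted as free of Sox9 when no Sox9 peak centre lay in it or within the same limit of its first or last peak centre, where a distance of 12476 bp counted as within the limit and 12534 bp as beyond it. This gave 564 runs with 3529 Sox6 peaks, which is 4.46% of the 79107 Sox6 peaks in the deposited list. There were 3707 Sox6 runs of 5 or more peaks in all, and the other 3143, with 27999 peaks, had at least 1 Sox9 centre in the same window and serve as the comparison. The regions were chosen by the called positions themselves, both the number of Sox6 peaks and the absence of Sox9, so neither is a finding.

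The Sox6 peaks came from 1 chromatin immunoprecipitation (ChIP-seq) sample of primary rib chondrocytes, the cartilage cells of the ribs, isolated from untreated wild-type ICR mice at postnatal day 1. One sample of input DNA, chromatin without antibody, was made from the same kind of cells, and it had no peak list used here. The 23865 Sox9 peaks were called by the authors from earlier rib chondrocyte libraries, for which the sources used here give neither strain nor age. The dissection kept proliferating and prehypertrophic cartilage and left out mature hypertrophic cartilage, so the peaks average over cells of several stages. With a single list for each factor there was no replicate. No difference below was therefore tested, and intervals are exact binomial (Clopper-Pearson, 95%), cover counting error only and treat peaks as independent, which neighbours in 1 run are not. The lists hold positions without read counts or scores, and depth is unknown. A window without a Sox9 peak is therefore one where none was called, and weak Sox9 signal cannot be told apart from none.

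SOX6 and SOX9 are transcription factors that bind the minor groove of DNA through an HMG box and bend it. SOX9 carries a transactivation domain and is required for cartilage to form, whereas SOX6, a SOXD protein that pairs through a coiled coil with itself or with SOX5, has none and is known in chondrocytes for enhancing the activity of SOX9 on cartilage genes. Regions with many Sox6 peaks and no called Sox9 are thus of interest as places where the known partner was not called. Regions are given by their mm9 positions, counted from 1, because no gene annotation or genome sequence of that build was used here. For the same reason the labelled cell type was not checked against marker genes.

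Most of the Sox9-free runs were small. Of the 564, 270 held 5 Sox6 peaks and 141 held 6, together 72.9%, and 38 held 10 or more, up to 21. They spanned a median of 15.6 kb between the first and last centre (quartiles 9.21 and 23.0 kb, range 1.42 to 75.1 kb). Runs with Sox9 held a median of 7 peaks and spanned 22.9 kb (quartiles 15.4 and 34.4 kb). Together the Sox9-free runs covered 9621 kb, and the widths of their peaks came to 6.47% of that length, against 5.52% in runs with Sox9.

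The share of Sox6 runs without Sox9 was 15.2% over all sizes and was lower in runs with many peaks. It was 24.8% (22.3 to 27.5) among runs of 5 peaks, 19.8% (17.0 to 23.0) among runs of 6 and 12.4% (9.45 to 15.8) among runs of 7. In runs of 10 or more peaks it was 4.31% (3.07 to 5.87), and only 4 of the 312 runs with 15 or more peaks lacked Sox9. A longer run also leaves more room for a Sox9 peak, so part of this order is built into the rule. By span, the share went from 46.2% (37.4 to 55.1) of the 130 runs of up to 5 kb to 5.98% (4.65 to 7.56) of the 1087 runs over 30 kb. Among runs with a similar span of 10 to 20 kb the share was 21.3% (17.8 to 25.1) for 5 peaks, 19.2% (15.0 to 23.9) for 6 and 12.2% (7.49 to 18.4) for 7. The intervals of the first and second overlapped widely and those of all 3 overlapped in part. Of all Sox9 peaks, 76.7% overlapped a Sox6 peak, so a run with more Sox6 peaks also holds more places for Sox9. The order at similar span was therefore not tested apart from the rule.

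**Figure D1:**
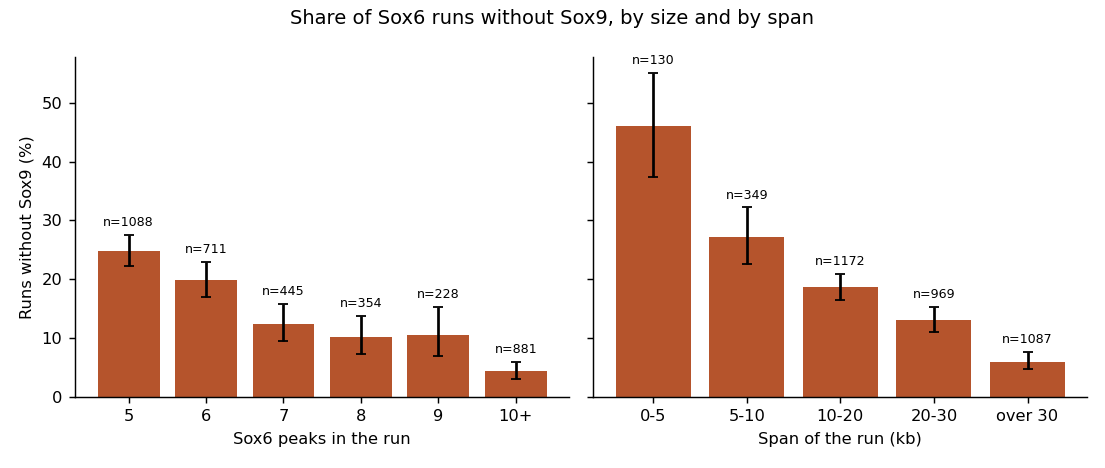
Percent of Sox6 runs without Sox9 (y axis) by number of Sox6 peaks in the run (left) and by span in kb (right); bars are shares, error bars exact 95% binomial intervals, and n is the number of runs. The share is 24.8% for 5 peaks and 4.31% for 10 or more, and it is 46.2% for spans up to 5 kb and 5.98% for spans over 30 kb.

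Sox9-free runs were present on each of the 19 autosomes. Their share of the Sox6 runs of a chromosome ranged from 11.2% (7.13 to 16.4) on chromosome 6 to 20.0% (14.3 to 26.7) on chromosome 13, with overlapping intervals. Chromosome 11 had the largest number, 47 of its 283 Sox6 runs (16.6%), and chromosome 18 the smallest, 17 of 124 (13.7%), with 15.2% over all runs.

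The run with the most peaks lay at chr2:115871773-115901891, with 21 Sox6 peaks in 29.9 kb and the nearest Sox9 centre 107 kb away. Its earliest peak stood at place 12117 of the Sox6 list and its latest at 75991, so that no peak of the run was in the first 10% of the list. Peak widths in it ran from 39 to 477 bp. The second, at chr9:110612349-110653650, held 16 peaks, the earliest at place 3924 and the next at 14821. It was much nearer to Sox9, with a centre 30.4 kb beyond its end and 233 kb before its start.

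Each of a pair of runs held 15 peaks, and they differed in how far Sox9 was. The one at chr3:86928527-86978704 spread its peaks over 49.8 kb, with Sox9 centres 306 kb before and 594 kb after it. The one at chr17:35087378-35121407 had a Sox9 centre 19.4 kb before it. The run at chr16:22251039-22266330 was more compact, with 14 peaks in 15.1 kb, and its earliest peak, at place 5930, was its last along the chromosome. Of the 3 runs with 13 peaks, that at chr1:95329750-95342213 was the tightest, at 12.3 kb, and the others lay at chr2:174152597-174170246 and at chr5:122947701-122979516.

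Of the 10 runs with the most peaks, the last pair held 12 each. Among the 6 Sox9-free runs with 12 peaks, these had the earliest places in the list, so an early peak in each reflects the choice. The run at chr1:180248291-180270655 had 2 early peaks, at places 992 and 1343, the first and the last but 1 along the chromosome, and its other 10 peaks stood at places 47176 to 77633. The run at chr3:122756595-122831859 was the longest of all the Sox9-free runs, at 75.1 kb, with a median of 7853 bp between neighbours, whereas the remaining 9 of these runs had medians from 596.5 to 2162.5 bp. In the map of these runs the early peaks are few and stand singly among late ones.

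**Figure D2:**
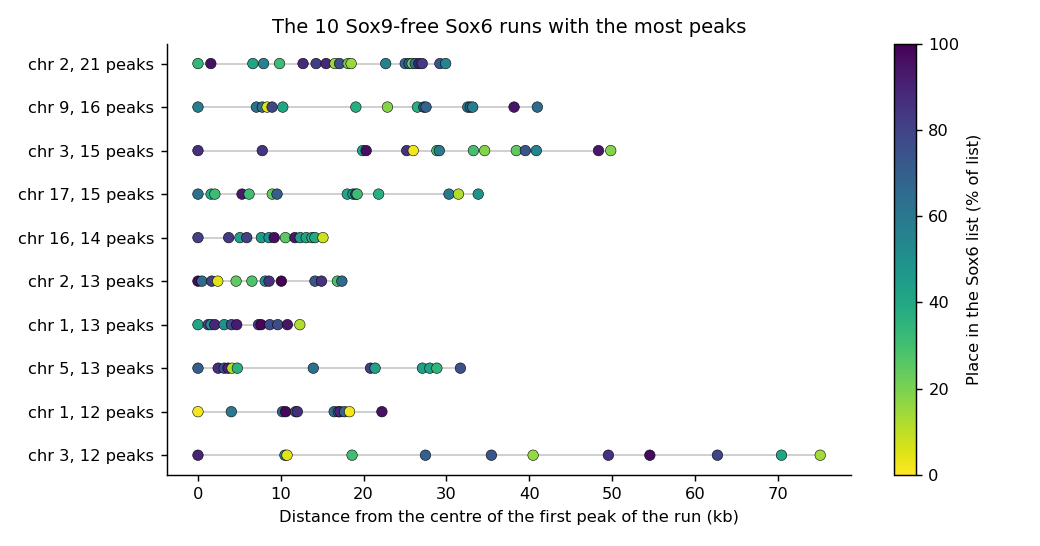
Peak centres of the 10 Sox9-free Sox6 runs with the most peaks; the x axis is the distance in kb from the first centre, each row is 1 run with its chromosome and number of peaks, and colour is the place in the Sox6 list in percent (yellow early, dark late). The run of 21 peaks spans 29.9 kb and the run of 12 peaks on chromosome 3 spans 75.1 kb. Peaks in the first 10% of the list are few and not next to each other. The runs of 12 peaks shown were picked from 6 by their earliest place in the list.

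Peaks of Sox9-free runs came late in the Sox6 list. The order of the list is not documented, and Sox9 overlap is known from these data to decline along it, so the place was used as a description and not as a measure of strength. The median over the 564 runs of each run's median place was at 58.6% of the list (quartiles 46.6 and 69.7), against 47.8% (35.4 and 59.6) for runs with Sox9, a difference of 10.7 percentage points. The difference was 9.68 points for runs of 5 peaks, 11.9 for 6, 10.6 for 7, 11.0 for 8, 9.63 for 9 and 15.0 for 10 or more, so it was present at each size. The quartiles of both kinds of run overlapped at each of these sizes.

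The earliest peak of a run stood at a median of 19.2% of the list in Sox9-free runs and at 6.30% in runs with Sox9, a comparison that also reflects the fewer peaks of Sox9-free runs. At equal size its median was later in Sox9-free runs by 11.0 points for runs of 5 peaks, 10.7 for 6, 10.3 for 7, 9.34 for 8, 6.33 for 9 and 8.56 for 10 or more. At least 1 peak from the first 10% of the list was present in 122 of the 564 Sox9-free runs, or 21.6% (18.3 to 25.3), whereas 58.8% of all 3707 runs had such a peak and 65.5% (63.8 to 67.1) of those with Sox9 did. At equal size the shares were 14.1% (10.2 to 18.8) against 50.0% (46.5 to 53.5) for runs of 5 peaks, and 44.7% (28.6 to 61.7) against 86.1% (83.6 to 88.4) for runs of 10 or more. Only 6 Sox9-free runs, 1.06% (0.391 to 2.30), had 2 or more peaks in the first 10%, against 24.0% of all runs and 28.1% (26.5 to 29.7) of runs with Sox9. The latest peak of a run stood at medians of 91.4% and 90.7% of the list over all sizes. At equal size it was later in Sox9-free runs by 3.83 points for 5 peaks, 1.55 for 6, 3.07 for 7, 4.00 for 8, 0.63 for 9 and 0.38 for 10 or more. Equal size does not make the 2 kinds of run alike. Only runs with Sox9 held peaks within 1000 bp of a Sox9 centre, and 28.1% of those peaks stood in the first 10%. These differences, like that in median place, were therefore not tested apart from the choice of runs.

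The later places were shared by Sox6 peaks away from Sox9 in general, clustered or not. The 3529 peaks of Sox9-free runs had a median place at 58.6% of the list. The 25821 autosomal Sox6 peaks outside runs of 5 with no Sox9 centre within the limit had a median at 58.3%. Inside runs with Sox9, the 3426 peaks that were themselves farther from a Sox9 centre than the limit had a median at 59.4%, and the 13784 peaks past 1000 bp from one but within the limit had a median at 60.5%. Peaks with Sox9 within 1000 bp stood earlier, with a median at 24.5% inside runs and 25.4% outside them. In the first 10% of the list stood 3.66% (3.06 to 4.33) of the peaks of Sox9-free runs, 3.01% (2.80 to 3.22) of the far peaks outside runs and 28.1% (27.2 to 28.9) of the near peaks inside runs. The peaks of Sox9-free runs were thus placed within about 2 percentage points of other Sox6 peaks away from Sox9, and late places are not shown to be particular to them.

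**Figure D3:**
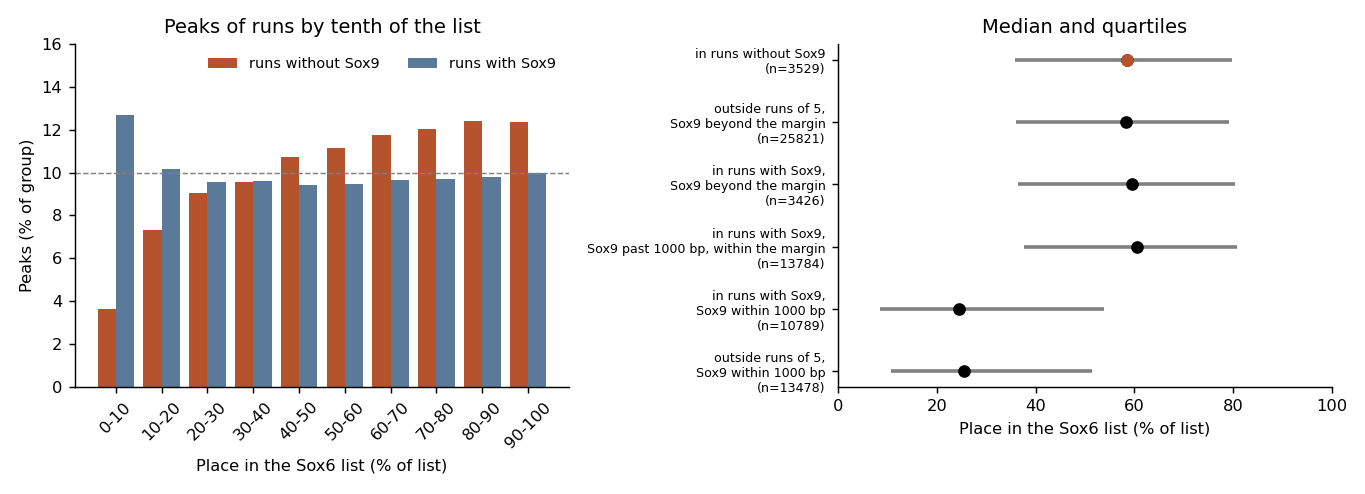
Left, percent of the peaks of each kind of run (y axis) in each successive 10% of the Sox6 list (x axis, percent of list), with a dashed line at 10%, the share of the whole list in each. Right, median (point) and quartiles (line) of list place for 6 sets of Sox6 peaks, with the peaks of Sox9-free runs in red at 58.6%; the sets more than 1000 bp from Sox9 have medians of 58.3% to 60.5%, and those within 1000 bp 24.5% and 25.4%.

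The 5 runs with the earliest peaks were picked by that place, so a very early peak in each follows from the choice. Each had 1 peak in the first 10% of the list. On chromosome 15 from 96114499 to 96119089, 6 peaks lay within 4.27 kb, and in order along the chromosome they stood at places 21971, 8787, 278, 29753, 40526 and 29755. The latest of them stood at 51.2% of the list, and the nearest Sox9 centre was 150 kb away. On chromosome 6 from 133983209 to 133998307, the peak at place 404 was 1 of 9, and the next earliest of them stood at 18091. The run at chr12:117820442-117826766 held 5 peaks, at places 23694, 36610, 710, 32481 and 79017 in order. On chromosome 5 from 100403131 to 100408209 the peak at place 733 was the last of 6 along the chromosome, and at chr6:108778518-108794552 the peak at place 779 was the first of 5. In these 5 runs the second earliest peak stood at place 8787 or later.

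The earliest peak was seldom the widest of its run. The earliest peak of a run was also its widest in 64 of the 564 Sox9-free runs, or 11.3% (8.85 to 14.3), with 10.4% over all runs and 10.3% (9.24 to 11.4) in runs with Sox9. This share also depends on the number of peaks. At equal size it was lower in Sox9-free runs at each size, with overlapping intervals. It was 15.9% (11.8 to 20.8) against 17.1% (14.6 to 19.9) for 5 peaks, and 2.63% against 3.08% for 10 or more. The earliest peak stood at an end of the run in 34.9% (31.0 to 39.0) of Sox9-free runs, against 28.9% of all runs. Sox9-free runs have fewer peaks, however, and so more of them at an end. At 5 peaks the values were 40.0% (34.1 to 46.1) and 37.2% (33.8 to 40.6) in runs with Sox9, with overlapping intervals. At other sizes the direction varied. Sox9-free runs had the lower share for 6 peaks (29.1% against 34.4%) and 9 (16.7% against 22.5%). They had the higher share for 7 (38.2% against 25.6%), 8 (30.6% against 27.0%) and 10 or more (31.6% against 16.7%). Peaks of both kinds of run had much the same width, with a median over runs of 154.5 bp in Sox9-free runs (quartiles 135 and 182) and 149.5 bp in runs with Sox9 (quartiles 134 and 169). A peak over 400 bp wide was present in 20.6% (17.3 to 24.1) of Sox9-free runs, 22.4% of all runs and 22.7% (21.3 to 24.2) of those with Sox9. This share was not split by number of peaks, and Sox9-free runs have fewer. At equal size the widest peak had a larger median in Sox9-free runs for 5 peaks (265 against 247 bp), 6 (285 against 271), 7 (334 against 279.5) and 8 (294 against 287.5). It was smaller for 9 (285.5 against 304.5) and 10 or more (343 against 369).

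Spacing within Sox9-free runs was tighter than in runs with Sox9 of the same number of peaks. The rule bounds spacing in both kinds alike, and the absence of Sox9 favours short windows, so this is a description. The 2965 distances between neighbouring centres had a median of 1564 bp (quartiles 626 and 5177), against 2113 bp (quartiles 833 and 5415) for the 24856 distances in runs with Sox9. Of these distances 18.1% were 500 bp or less in Sox9-free runs and 11.3% in the others. The median over runs was 1814 bp against 2489 bp, and 2057 against 2955 bp for runs of 5 peaks. Among runs of 5 peaks that spanned 10 to 20 kb it was 2845 against 2939.5 bp, and for 7 peaks in that span 1065 against 1728 bp. The direction depended on the span: among all runs of 20 to 30 kb, Sox9-free runs had fewer peaks and the wider median spacing, 4156 against 3130 bp, and among runs over 30 kb it was 4881 against 3298 bp.

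**Figure D4:**
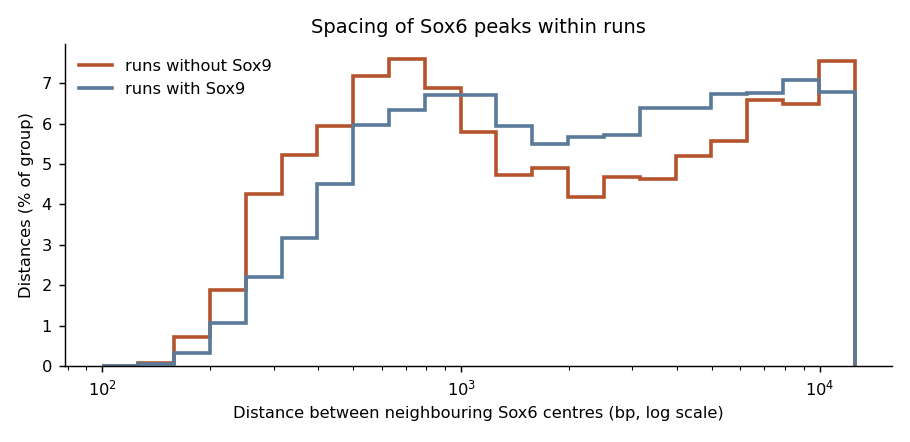
Distances between neighbouring Sox6 centres within runs (x axis, bp, log scale, bins of equal log width) as percent of all distances of that kind of run (y axis). The curve of Sox9-free runs has a median of 1564 bp and is shifted to shorter distances than that of runs with Sox9 (median 2113 bp), with 18.1% against 11.3% of distances at 500 bp or less.

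Very compact runs were a visible part of the Sox9-free set. A span of 5 kb or less was found in 60 of the 564, or 10.6% (8.22 to 13.5), with 3.51% over all runs and 2.23% (1.74 to 2.81) in runs with Sox9. Among runs of 5 peaks the shares were 17.0% (12.8 to 22.1) and 6.72% (5.11 to 8.66). A shorter run leaves less room for a Sox9 peak, so this contrast is at least partly built into the rule and is a description. The densest Sox9-free run lay at chr17:3083375-3085038, with 6 peaks in 1.48 kb. Its peaks were 81, 330, 480, 286, 384 and 291 bp wide in order, and 4 of its 5 neighbouring pairs overlapped each other, so that the 6 called peaks form 2 unbroken stretches. No Sox9 peak was called before it on the chromosome, and the nearest Sox9 centre after it was 30.1 kb away. Whether reads could be placed in the sequence before it was not checked.

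The other 4 of the densest runs held 5 peaks each. That at chr10:62348737-62350248 had evenly set centres, 319.5 to 396.5 bp apart, without overlap between peaks. The remaining ones lay at chr2:168566627-168568387, at chr12:84826877-84828810 and at chr18:53622136-53624044, with spans of 1.60, 1.80 and 1.81 kb. Only the chromosome 18 run of these 5 had a peak in the first 20% of the list, at place 9462. Overlapping neighbours occurred in 61 Sox9-free runs, 10.8% (8.37 to 13.7), in 7.42% of all runs and in 6.81% (5.95 to 7.75) of runs with Sox9. This share was not split by number of peaks or by span, and Sox9-free runs were more often compact.

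The nearest Sox9 centre to a Sox9-free run was a median of 33.8 kb away (quartiles 21.7 and 61.7 kb). On the farther side the median was 97.3 kb, and the whole interval between the flanking Sox9 centres had a median of 157 kb over the 562 runs that had Sox9 on both sides. The run was seldom alone in that interval, which held a median of 12 Sox6 peaks (quartiles 9 and 16), and in 7 runs no further Sox6 peak lay in it. An interval shared by several Sox9-free runs was counted once for each of them, so these values are not independent. Within 50 kb of the ends of a run stood a median of 4 other Sox6 peaks, and 37 runs, 6.56% (4.66 to 8.93), had none. The nearest other run of 5 or more lacked Sox9 too in 87 cases, 15.4% (12.5 to 18.7), and 15.2% of all runs lacked it. The nearest Sox9 peak itself overlapped a Sox6 peak in 445 cases, 78.9% (75.3 to 82.2), as did 76.7% of all Sox9 peaks, and was spread over the Sox9 list, with a median place at 54.5%.

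Runs more than 250 kb from Sox9 were few. The distance was above 25 kb for 377 runs (66.8%), above 50 kb for 183 (32.4%), above 100 kb for 75 (13.3%) and above 250 kb for 12 (2.13%). The farthest lay at chr16:27388453-27401861, with 5 peaks and a nearest Sox9 centre 762 kb away. It was followed by runs at chr5:58105329-58110937 at 758 kb, at chr15:65617608-65630810 at 678 kb, at chr11:65553901-65559602 at 612 kb and at chr18:7502068-7513778 at 477 kb. All 5 of these held 5 peaks, as did 270 of the 564 Sox9-free runs. None had a peak in the first 10% of the list, and 14.1% of all Sox9-free runs of 5 peaks had one. The earliest places of these farthest runs ranged from 15521 on chromosome 15 to 51554 on chromosome 11, where every peak stood past 50% of the list.

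Close to the limit of the rule, the values ran on without a gap. Just inside were runs at chr6:34671844-34701040, with 10 peaks and Sox9 at 12534 bp, at chr6:115936616-115959799 at 12599 bp, and at chr12:70283065-70299065 at 12678 bp. Just outside were runs at chr16:43489750-43521566 at 12476 bp, at chr8:111215135-111254858, with 15 peaks, at 12465 bp, and at chr7:80535625-80544720 at 12355 bp.

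**Figure D5:**
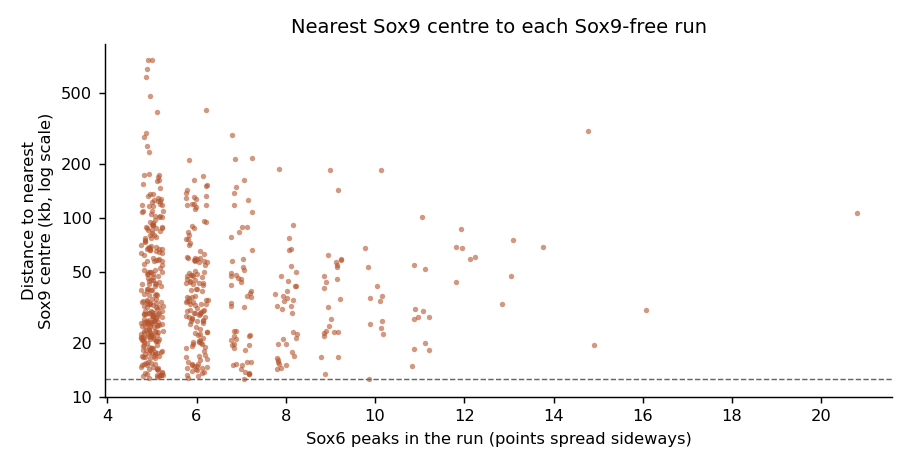
Distance in kb from each of the 564 Sox9-free runs to the nearest Sox9 centre (y axis, log scale) against its number of Sox6 peaks (x axis, points spread sideways); the dashed line is the limit of the rule. The median is 33.8 kb, and the 5 farthest runs, at 477 to 762 kb, hold 5 peaks each, as do 270 of the 564 runs.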

How the data were processed

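Per the submitters' processing notes, Bowtie and the mouse build mm9 were used, without versions. For the peak caller, its threshold and filters the entry is: not given in the sources used here. The deposited lists hold 3 unnamed columns that place each called peak (chromosome, start, end) and no other value. The design text describes the Sox9 list as a re-analysis of earlier samples with peak calling as for Sox6, and its build, not given separately, was taken as mm9. Starts were read as counted from 0 and are printed counted from 1. Centres are the midpoints of peaks. Overlapping peaks were kept as called. Runs were built in Python 3.11.15 with pandas 2.3.3, and exact intervals with scipy 1.17.1. The run finder was tested on simulated lists. Regions named were the 10 runs with the most peaks, the 5 with the earliest peak in the list, the 5 farthest from Sox9, the 5 with the most peaks per kb, and the 3 on each side of the margin. Ties in the number of peaks went to the run with the earliest place in the list. The members, comparisons and the rule for naming were chosen with earlier results of these data known. The comparison with Sox6 peaks outside runs and the counts of the neighbourhood were added after the files had been examined. No genome or gene annotation of mm9 was used, so the planned gene, marker and motif analyses were not run and no sequence is shown. The gene tables used elsewhere are on GRCm38 and coordinates were not converted.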

Additional observations from a re-analysis of the deposited data

How the results depend on the processing

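In all 10 alternatives, Sox9-free runs had later median list places than runs with Sox9, by 9.17 to 14.98 percentage points. They also had wider peaks and tighter spacing, without a split by size or span. Each alternative re-cut the same lists. As reported, only runs with Sox9 held peaks within 1000 bp of Sox9, with a median place at 24.5%. The later place was therefore not tested apart from the choice of runs. As reported, the width difference was -0.25 bp at 8 peaks and positive at the other sizes. Spacing was wider by 1026.5 bp for spans of 20 to 30 kb and 1583.5 bp over 30 kb, and tighter for shorter spans. The number of Sox9-free runs was 296 with centres up to 5000 bp apart, 2615 for runs of 3 or more peaks, 38 for runs of 10 or more, 183 with a margin of 50000 bp, 1312 with the first 50% of the Sox9 list and 44 with the first 50% of the Sox6 list. Membership thus depends on the length of both lists, and the cause was not tested. The share of runs without Sox9 was 12.4% with centres up to 25000 bp apart, 29.2% for runs of 3 or more peaks, 4.31% for 10 or more, 21.6% with no margin, 4.94% with a margin of 50000 bp, 35.4% with the first 50% of the Sox9 list and 4.29% with the first 50% of the Sox6 list. The difference in list place was 14.98 points for runs of 10 or more peaks. The difference in median width, 5 bp as reported, was 9 bp for those runs and 1.5 bp with the first 50% of the Sox9 list. The difference in median spacing, -675 bp as reported, was -350 bp with a limit of 5000 bp, -307 bp with 25000 bp and -271 bp for runs of 10 or more peaks. Merging overlapping Sox6 peaks gave 535 runs, and adding chromosome X gave 576. No paired analysis was possible because each factor has a single list without replicates.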

Other observations

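Neighbouring entries of the Sox6 list shared a chromosome more often late in the list than early, which touches each value given by list place. In the first 10% of the list 5.75% of consecutive entries lay on the same chromosome, and in the last 10% 17.3% did. Peaks of 1 run also stood close together in the list: in 120 of the 564 Sox9-free runs (21.3%) at least 1 pair of peaks was within 10 places of each other, as in 863 of the 3143 runs with Sox9 (27.5%) and 26.5% of all runs. Runs with Sox9 hold more peaks and so more pairs. Counted by pair, 149 of 10303 pairs (1.45%) in Sox9-free runs were that close, and 1625 of 186914 (0.869%) in runs with Sox9. In the run of 15 peaks on chromosome 3 from 86928527, for example, 2 peaks stood at places 67231 and 67232.

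The 6 Sox9-free runs with more than 1 peak in the first 10% of the list were picked out after their values were seen. Besides the run at chr1:180248291-180270655, they lay at chr1:120944578-120950335, at chr7:20401745-20435177, at chr10:114673893-114688557, at chr11:120203979-120216565 and at chr12:100615637-100645749. The chromosome 11 run had 3 such peaks among its 11, the earliest at place 3658, with the nearest Sox9 centre 30.1 kb away.

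The widest Sox9-free interval around a run was 5165 kb, on chromosome 11 around the run of 7 peaks from 23976481, and it held 54 Sox6 peaks.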
